A study of Mus musculus with 12 samples.

Results

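The nuclear-encoded subunits of the oxidative phosphorylation complexes were examined in mouse liver RNA-Seq. Members were the protein-coding rows of the TPM (transcripts per 1000000) table whose symbols begin with Nduf followed by a, b, c, s or v and a digit, with Uqcr, with Cox4i, Cox5, Cox6, Cox7 or Cox8, or with Atp5, together with Sdha, Sdhb, Sdhc and Sdhd. This name rule gave 86 of the 55385 features, 38 for complex I, 4 for complex II, 8 for complex III, 18 for complex IV and 18 for complex V. The 86 rows carried 85 symbols, because Atp5o was listed in 2 rows, and 1 of them was listed at 0 in every mouse. A total of 80 rows had a mean of at least 1 TPM and were tested, and 6 were not, of which 3 were listed at 0 throughout. Nuclear-encoded subunits whose symbols do not match the rule, such as Ndufab1, were not members. Sums over the members therefore need not cover a whole complex.

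The livers came from 12 male C57BL/6 mice of 7 weeks, 4 per group, taken 7 days after injection of adenoviruses at a total of 500000000 plaque-forming units. Ad-Ctrl mice received the control viruses Lac and pAdV5. Ad-shmGULL mice received a virus carrying a short hairpin RNA against mGULL, a mouse liver long noncoding RNA, together with pAdV5, and rescue mice (Ad-shmGULL+hGULL) received the hairpin virus together with a virus for the human counterpart hGULL. All groups therefore carried adenovirus, and no uninjected mice were among them. The labels give an injection into the eye, the study's methods also describe delivery into the orbital venous plexus, and the hairpin used in these 12 mice was not named. The level of mGULL itself was not analysed here.

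Oxidative phosphorylation couples electron transfer along the inner mitochondrial membrane to the synthesis of ATP. Complex I takes electrons from NADH and complex II from succinate, both pass them to ubiquinone, complex III passes them on to cytochrome c, complex IV hands them to oxygen, and complex V uses the proton gradient that results. Most subunits are encoded in the nucleus, whereas the membrane core of complexes I, III, IV and V is partly encoded by mitochondrial DNA. Hepatocytes are rich in mitochondria and spend this ATP on glucose production, urea synthesis and the handling of lipids. The 37 features of the mitochondrial genome were listed at 0 in every mouse, so that the mitochondrially encoded partners could not be set beside the nuclear ones.

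Each library summed to the same total, so the depth per mouse is unknown and precision is given by the spread between mice. All 7 hepatocyte markers were detected, at a sum of 74087 to 119018 TPM, and 0 of 7 skeletal muscle and heart markers reached a mean of 1 TPM. Of the other marker lists, 1 of 3 brown fat genes, 0 of 3 testis genes and all 5 erythroid, 5 T and NK cell, 5 Kupffer cell and macrophage and 4 stellate cell genes reached it. In whole tissue, fewer cells of a type and less RNA per cell cannot be told apart. Among all tested features, the median log2 fold change was 0.09 in Ad-shmGULL against Ad-Ctrl, 0.09 in rescue against Ad-shmGULL and 0.17 in rescue against Ad-Ctrl, so that a typical gene was not centered at 0.

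Mice 1 of Ad-Ctrl and of Ad-shmGULL stood apart in the subunits. In Ad-Ctrl mouse 1, 55 of the 80 subunits were the highest of the group and 2 the lowest, and the summed muscle markers were 5.67 TPM against 0.404 to 0.630 in the other Ad-Ctrl mice. Its summed T and NK cell markers (57.6 against 17.5 to 31.8 TPM) and stellate cell markers (124 against 65.5 to 96.9 TPM) were also the highest of the group. The same held for brown fat markers (2.14 TPM), but not for hepatocyte, erythroid or Kupffer cell and macrophage markers. In Ad-shmGULL mouse 1, 29 subunits were the highest and 36 the lowest of the group, and the SD of the subunits around their group means was 0.308 on the log2 scale, against 0.0609 to 0.195 in the other 11 mice. Over all tested features this SD was also largest in Ad-shmGULL mouse 1 (0.338) and Ad-Ctrl mouse 1 (0.301), against 0.200 to 0.299 in the other mice. The deviation of Ad-shmGULL mouse 1 was therefore not limited to the subunits. For Ad-Ctrl mouse 1 the SD over all features was close to the highest of the other mice (0.299). The summed muscle markers of Ad-shmGULL mouse 1 were 1.05 TPM, inside the 0.765 to 2.37 TPM of its group. Some of the values that moved without 1 of these 2 mice are given with and without it, and others are not. The part of other cell types or tissues in these values was not tested.

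Ndufs8 fell after the knockdown, and Ndufa8 rose. Both belong to complex I and were the only subunits past an adjusted p of 0.05 in any of the 3 comparisons. Ndufs8, a core iron-sulfur protein on the path of electrons towards ubiquinone, lies on chromosome 19 (minus strand, 3908863 to 3912774, GRCm38.p6). Ndufa8, an accessory subunit on the side of the complex that faces the intermembrane space, lies on chromosome 2 (minus strand, 36036324 to 36049338). The promoter windows of this pair, from 250 bases before to 50 bases after the RefSeq start, are shown because the genes moved in opposite directions. Capitals mark the single match to any of 5 searched motifs in each window.
Ndufs8, chr19:3912725-3913024, minus strand, 5′ to 3′: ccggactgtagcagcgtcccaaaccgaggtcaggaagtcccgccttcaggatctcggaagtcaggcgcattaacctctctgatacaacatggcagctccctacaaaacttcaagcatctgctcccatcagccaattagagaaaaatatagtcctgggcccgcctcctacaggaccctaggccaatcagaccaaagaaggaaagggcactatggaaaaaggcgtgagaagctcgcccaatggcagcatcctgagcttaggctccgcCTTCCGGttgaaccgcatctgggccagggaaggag
Ndufa8, chr2:36049289-36049588, minus strand, 5′ to 3′: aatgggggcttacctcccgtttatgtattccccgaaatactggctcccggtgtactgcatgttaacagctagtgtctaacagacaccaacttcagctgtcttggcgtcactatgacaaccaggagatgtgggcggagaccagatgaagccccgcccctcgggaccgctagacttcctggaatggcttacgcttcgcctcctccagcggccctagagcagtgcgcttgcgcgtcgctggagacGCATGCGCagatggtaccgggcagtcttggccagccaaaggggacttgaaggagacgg

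The capitals in Ndufs8 are the ETS motif CCGGAAG on the opposite strand, which starts at base 16 after the start site. Those in Ndufa8 are the core of the NRF1 motif, GCGCATGC, also on the opposite strand, from base -8. NRF1 and the ETS protein GABPA are known regulators of respiratory chain genes. Both strands of 73 windows of 68 member symbols were searched, and the same was done for 32851 windows of all genes. The NRF1 core was in 13.7% of the subunit windows and 2.71% of all windows, and the ETS motif in 23.3% and 8.86%. The YY1 motif AAGATGGCG was in 9.59% and 1.4%, the CRE motif TGACGTCA in 5.48% and 1.79%, and the ERR motif TCAAGGTCA in 2.74% and 0.423%. Every motif was thus more frequent among the subunit windows, as a description of letters and not of binding. For the ERR motif this rested on 2 and for the CRE motif on 4 of the 73 subunit windows. The windows of all genes were not matched to them in base composition. Motif by motif, the median fold changes of subunits with and without a match showed no common direction.

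In the 4 Ad-Ctrl mice Ndufs8 was at 131, 104, 113 and 124 TPM. In Ad-shmGULL it was at 61.9, 61.5, 99.3 and 64.7 TPM, and in the rescue mice at 92.5, 95.2, 97.8 and 95.6 TPM. Every knockdown mouse was below every Ad-Ctrl mouse, but mouse 3 was far above the other 3 knockdown mice and also above all rescue mice. The means were 118 ± 12 TPM in Ad-Ctrl, 71.9 ± 18.3 in Ad-shmGULL and 95.3 ± 2.21 in rescue (SD, n = 4 each). The log2 fold change of Ad-shmGULL against Ad-Ctrl was -0.74 (SE 0.136, limma adjusted p = 0.017), 0.601 times the control level on the scale of TPM + 1. The exact two-sided permutation test gave p = 0.0286, the smallest that 4 against 4 allow. Groups without overlap always give this value, so the permutation test adds nothing to the lack of overlap. Against Ad-shmGULL the rescue value was 0.43 higher on the log2 scale (SE 0.136, adjusted p = 0.37), with overlapping groups. Against Ad-Ctrl it was -0.30 (SE 0.136, adjusted p = 0.19), which is -0.48 relative to the all-gene median, and every rescue mouse was below every Ad-Ctrl mouse. The knockdown against Ad-Ctrl value stayed past the threshold in 21 of 24 alternatives, with adjusted p from 7.96e-04 to 0.079. It was lost when only the 2 groups were compared, without Ad-Ctrl mouse 4 and without Ad-shmGULL mouse 2, and gave -0.67 without Ad-shmGULL mouse 1 (limma adjusted p = 0.0357).

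Ndufa8 was the most abundant complex I subunit, with a mean of 303 TPM over all mice. It was at 320, 227, 185 and 215 TPM in Ad-Ctrl, at 421, 366, 354 and 306 TPM in Ad-shmGULL and at 321, 345, 282 and 296 TPM in rescue. Ad-Ctrl mouse 1 was the only control within the range of the other groups. The log2 fold change of Ad-shmGULL against Ad-Ctrl was 0.63 (SE 0.150, limma adjusted p = 0.0432), or 1.55 times the control level. This call held in 7 of 24 alternatives, with adjusted p up to 0.134. Without Ad-Ctrl mouse 1 the value was 0.79 (limma adjusted p = 0.00938), and without Ad-shmGULL mouse 1 it was 0.55 (adjusted p = 0.0791). Rescue against Ad-Ctrl gave 0.42 (SE 0.150, adjusted p = 0.12), and rescue against Ad-shmGULL -0.21 (SE 0.150). The annotation of a later build (GENCODE vM39) places an exon of Morn5 on the opposite strand across an exon of Ndufa8, and one of the lncRNA Gm59302 likewise across Ndufs8. The libraries were strand-specific but the strand setting of the counting was not given in the sources used here, so reads of these neighbors could not be told apart from those of the subunits.

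**Figure D1:**
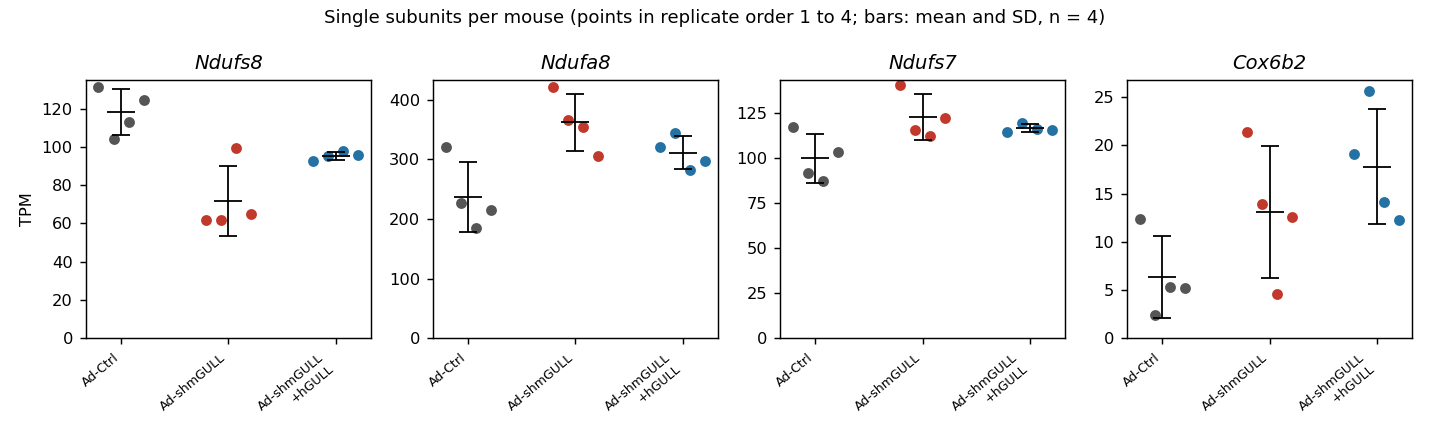
TPM of Ndufs8, Ndufa8, Ndufs7 and Cox6b2 in each mouse of the 3 groups, with the mean and SD of 4 mice as bars and a linear axis from 0. Ndufs8 sits at 61.5 to 64.7 TPM in 3 knockdown mice and at 99.3 TPM in mouse 3, while Ndufa8 and the core subunit Ndufs7 lie higher in knockdown than in most Ad-Ctrl mice, and Cox6b2 varies several-fold within each group.

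Across the comparison of Ad-shmGULL with Ad-Ctrl, 1 of the 80 tested subunits was called higher and 1 lower by limma at an adjusted p under 0.05. The background over all 16378 features was 2.44% higher and 0.794% lower. At the study's threshold, a log2 fold change past 0.5 in either direction and an unadjusted p under 0.05, 3 subunits passed (Ndufs8, Ndufa8 and Cox6b2), 3.75% against 7.65% of all features. Unadjusted p was under 0.05 for 14 higher and 1 lower subunit, 17.5% and 1.25% against 15.4% and 4.8% of all features. The groups did not overlap for 3 higher subunits, Uqcrc1 and Atp5b among them, and 1 lower, 3.75% and 1.25% against 6.93% and 2.06%. The single call in each direction is too few to set against the background, and the share at an unadjusted p under 0.05 was near it for higher subunits. The median of the 80 subunits was 0.11 against 0.09 for all features, and 67 subunits were above 0. With median-of-ratios scaling 42 were above and 38 below 0, so the direction of the set as a whole rested on the scaling.

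Rescue against Ad-shmGULL gave no call among the subunits and none among all features, 0% in each direction. At the study's threshold 0 of 80 subunits passed, against 3% of all features. Unadjusted p was under 0.05 for 5 higher subunits (Ndufs8, Sdhd, Cox6c, Ndufa1 and Cox7a2) and 0 lower, 6.25% and 0% against a background of 9.32% and 1.4%. Groups lay apart for 4 higher subunits (Cox6c, Ndufa1, Ndufa9 and Uqcrh) and 4 lower (Ndufb7, Atp5h and Uqcrc1 among them), 5% each against 5.4% and 0.983%. The median of the subunits was 0.04, under the 0.09 of all features, and 46 of 80 were above 0. After median-of-ratios scaling the median was -0.06 with 28 above and 52 below 0.

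Rescue against Ad-Ctrl called 0 of 80 subunits, against 2.12% of all features higher and 0.0244% lower. At the study's threshold 2 passed (Cox6b2 and Ndufa4l2), 2.5% against 7.49%. Unadjusted p was under 0.05 for 26 higher and 1 lower subunit, 32.5% and 1.25% against 24.2% and 1.09%. Groups lay apart for 16 higher subunits and 1 lower (Ndufs8), 20% and 1.25% against 21.4% and 0.855%, so the count of 16 was near the background. The subunit median was 0.13, which is -0.04 relative to the 0.17 of all features, and 30 of 80 were above that median. The count of calls differed between fits, and the cause was not tested. The count was 12 when only the 2 groups were compared (11 higher, with 9.98% of all features called higher), 25 with array weights (24 higher, with 18.7%), 6 without Ad-Ctrl mouse 1 (all higher, with 6.38%) and 5 without Ad-shmGULL mouse 1 (all higher, with 5.13%). The comparisons share samples, Ad-Ctrl in those against Ad-Ctrl and Ad-shmGULL in those of the knockdown, so their values for a gene are not independent of each other.

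**Figure D2:**
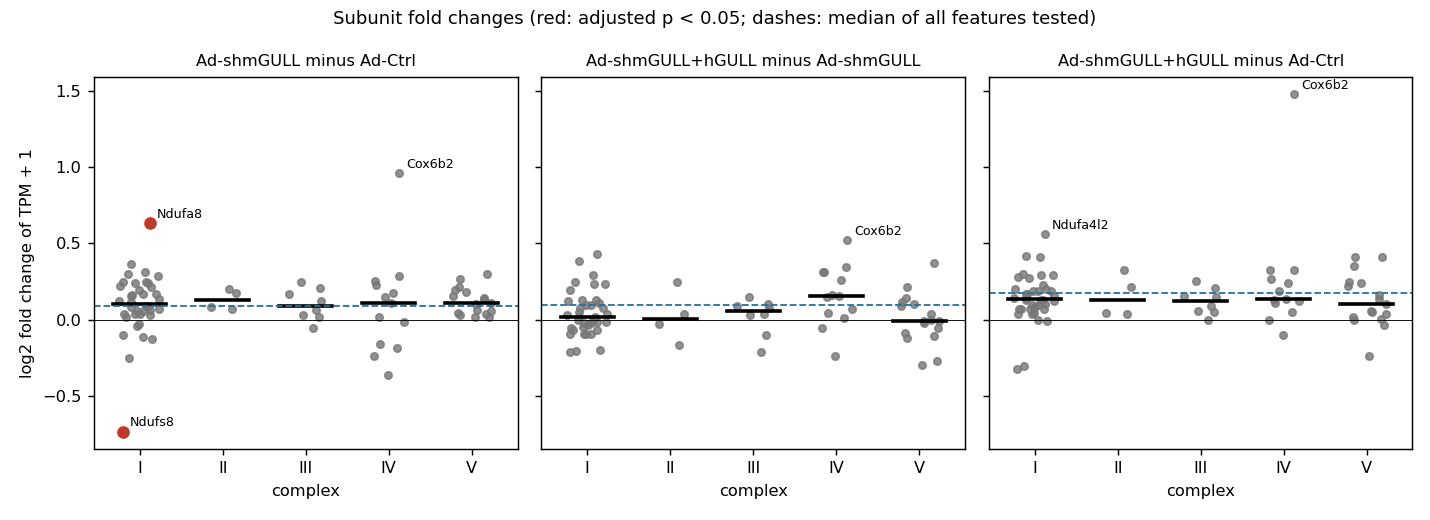
Log2 fold change of TPM + 1 of each tested subunit by complex in the 3 comparisons, with black bars at the median of each complex, dashes at the median of all features and red points for an adjusted p under 0.05. Ndufs8 and Ndufa8 are the 2 red points, both in the first comparison, and Cox6b2 has the largest rise in each.

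In sum over the rows of the name rule, subunit mRNA made up 1.35% of all TPM in Ad-Ctrl, 1.49% in Ad-shmGULL and 1.49% in rescue. The summed values were 13520 ± 994 TPM in Ad-Ctrl, 14931 ± 423 in Ad-shmGULL and 14878 ± 513 in rescue (SD, n = 4). Ad-Ctrl mouse 1, at 15005 TPM, lay within the range of the other groups, and the other 3 Ad-Ctrl mice were between 12938 and 13147 TPM. The lowest knockdown mouse was at 14493 TPM and the lowest rescue mouse at 14292 TPM. No test was run on the sums, and the all-gene median also lay above 0 in both groups against Ad-Ctrl. The 5 most abundant members, Atp5a1, Cox6a1, Atp5b, Cox6b1 and Cox4i1, made up 25.7% of the mean sum.

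**Figure D3:**
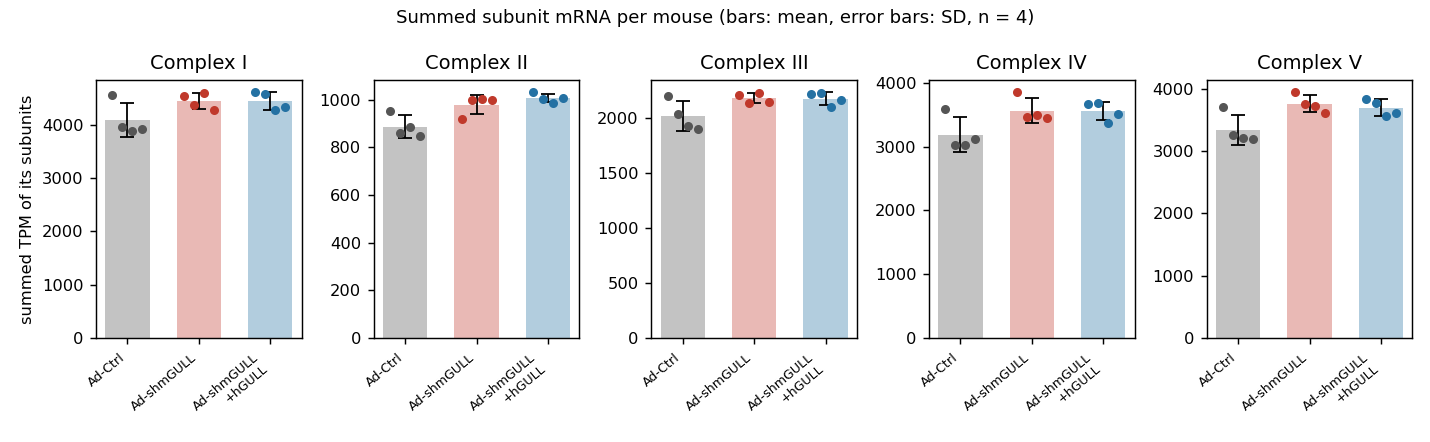
Summed TPM of the subunits of each complex in each mouse, with bars at the mean and error bars of 1 SD (n = 4), axes from 0. In complexes I, IV and V Ad-Ctrl mouse 1 lies well above the other 3 Ad-Ctrl mice, and the knockdown and rescue means differ by less than the SD of the knockdown mice in every complex.

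Complex I contributed 38 tested subunits, from 4.08 TPM (Ndufa4l2) to 303 TPM (Ndufa8), with a sum of 4088 ± 321 TPM in Ad-Ctrl, 4451 ± 146 in Ad-shmGULL and 4445 ± 169 in rescue (SD, n = 4). Its core consists of flavoprotein and iron-sulfur subunits that carry electrons from NADH to ubiquinone. Of the core subunits Ndufv1, Ndufv2, Ndufs1, Ndufs3, Ndufs7 and Ndufs8, only Ndufs8 was below the median of all genes in Ad-shmGULL against Ad-Ctrl. The other 5 gave 0.12 to 0.31 on the log2 scale, and none passed the adjusted threshold. Ndufs8 therefore stood opposite to these 5.

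Ndufv1, which binds NADH and the flavin, was at 236, 183, 168 and 190 TPM in Ad-Ctrl, at 300, 229, 209 and 230 TPM in Ad-shmGULL and at 249, 236, 224 and 239 TPM in rescue. Ad-Ctrl mouse 1 was the only control within the range of the knockdown or rescue mice. Ndufs1, the largest core iron-sulfur protein, was at 67.0, 52.7, 52.0 and 52.9 TPM in Ad-Ctrl, at 68.7, 72.7, 65.5 and 66.3 TPM in Ad-shmGULL and at 69.2, 62.6, 60.4 and 63.3 TPM in rescue. Here too mouse 1 was the high Ad-Ctrl mouse. Ndufs7, which holds the last cluster before ubiquinone, was at 118, 91.8, 87.3 and 104 TPM in Ad-Ctrl, at 141, 116, 112 and 123 TPM in Ad-shmGULL and at 115, 120, 116 and 116 TPM in rescue. The adjusted p of Ad-shmGULL against Ad-Ctrl was 0.0922 for Ndufs1, 0.11 for Ndufs7 and 0.17 for Ndufv1 in the limma fit. Without Ad-Ctrl mouse 1, 8 subunits were called, and Ndufs1, Ndufs7 and Ndufa8 were among the 7 higher, beside Ndufb10, Cox6b1, Uqcrc1 and Atp5h. In that fit 4.76% of all features were called higher.

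Ndufs3, a core subunit, was the steadiest subunit among the 4 knockdown mice, at 91.4 to 94.8 TPM. It was at 78.1 to 93.4 TPM in Ad-Ctrl and 90.3 to 98.4 TPM in rescue. Ndufv2 ranged from 106 to 120 TPM in Ad-Ctrl, from 93.2 to 141 TPM in Ad-shmGULL and from 116 to 135 TPM in rescue. The difference between groups was smaller than the spread within the knockdown group in Ndufv2.

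The accessory subunits surround this core and are needed for its assembly or stability. In Ad-shmGULL against Ad-Ctrl the 12 Ndufa members had a median of 0.06, the 13 Ndufb and Ndufc members 0.08 and the 4 other accessory members (Ndufs4, Ndufs5, Ndufs6 and Ndufv3) 0.10. All 3 medians were close to the 0.09 of all features. Ndufa2, an accessory subunit of the module that binds NADH, varied most, at 262, 266, 175 and 207 TPM in Ad-Ctrl, 331, 144, 251 and 152 TPM in Ad-shmGULL and 171, 184, 189 and 173 TPM in rescue. The knockdown mice fell on both sides of the other groups. Ndufa2 had the lowest value of rescue against Ad-Ctrl, -0.32 (SE 0.231), or -0.49 relative to the all-gene median, with overlapping groups.

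Ndufa1, a small accessory subunit of the membrane arm, was at 141, 133, 155 and 134 TPM in Ad-Ctrl, 93.6, 147, 140 and 141 TPM in Ad-shmGULL and 158, 171, 151 and 151 TPM in rescue. All rescue mice were above all knockdown mice, by 0.29 in the mean log2 value (SE 0.126, limma adjusted p = 0.44), and knockdown mouse 1 was far below the other 3. Without that mouse the Ndufa1 difference was 0.14. Ndufb11 ranged from 201 to 254 TPM and Ndufb9 from 197 to 259 TPM over all 12 mice, both small subunits of the membrane arm. Ndufa4, long counted with complex I and now placed in complex IV, was at 276 ± 17.2 TPM in Ad-Ctrl, 235 ± 47.1 in Ad-shmGULL and 275 ± 13.3 in rescue (SD, n = 4). Its paralog Ndufa4l2, known as a gene induced by hypoxia, was at 3.17 ± 1.37, 4.15 ± 0.467 and 4.93 ± 0.983 TPM, or 1.15%, 1.77% and 1.76% of the pair. Ndufb1-ps carries a pseudogene suffix but is listed as protein-coding, at 16.8 to 32.8 TPM.

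Complex II, which also works in the citric acid cycle, has no mitochondrially encoded subunit, so its 4 genes are the whole complex. Its sum was 887 ± 47.7 TPM in Ad-Ctrl, 979 ± 41.2 in Ad-shmGULL and 1007 ± 18.4 in rescue (SD, n = 4), and all rescue mice (987 to 1032 TPM) were above all Ad-Ctrl mice (846 to 954 TPM). In this comparison the median log2 fold change of the 4 subunits was 0.13, which is -0.04 relative to all features. After median-of-ratios scaling it was -0.07, with 2 subunits above and 2 below 0. Sdha, the flavoprotein that oxidizes succinate, was at 307, 290.5, 315 and 279 TPM in Ad-Ctrl, 304, 354, 342 and 349 TPM in Ad-shmGULL and 356, 346, 339 and 343 TPM in rescue. Only knockdown mouse 1 fell in the range of the controls. Sdhb, the iron-sulfur partner of Sdha, was at 255, 223, 184 and 189 TPM in Ad-Ctrl, 260, 220, 260 and 234 TPM in Ad-shmGULL and 220, 210, 225 and 213 TPM in rescue, with overlap in each comparison.

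Sdhc and Sdhd anchor the complex in the membrane and bind heme and ubiquinone. Sdhd was at 262, 236, 270 and 269 TPM in Ad-Ctrl, 224, 306, 273 and 300 TPM in Ad-shmGULL and 335, 330, 304 and 329 TPM in rescue. All rescue mice were above all Ad-Ctrl mice, and the log2 difference was 0.32 (SE 0.098, limma adjusted p = 0.0844, 0.15 relative to the all-gene median). Without knockdown mouse 1, whose removal changes the estimate of the spread, the same difference was past the threshold (limma adjusted p = 0.0341). It was past the threshold in 1 of 12 fits with 1 mouse left out. Rescue against Ad-shmGULL gave 0.24 (SE 0.098, adjusted p = 0.42), and 0.15 without knockdown mouse 1. Sdhc was at 129, 111, 117 and 110 TPM in Ad-Ctrl, 130, 119, 127 and 114 TPM in Ad-shmGULL and 120, 119, 119 and 121 TPM in rescue. Sdhc thus differed between groups by less than the spread of the Ad-Ctrl mice.

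Complex III passes electrons from ubiquinol to cytochrome c, and its 8 tested subunits lay between 130 TPM (Uqcrb) and 394 TPM (Uqcr10). Its sum was 2016 ± 135, 2180 ± 44.5 and 2176 ± 60.0 TPM in the 3 groups (SD, n = 4). The 2 core proteins and the Rieske iron-sulfur protein had a median of 0.21 in Ad-shmGULL against Ad-Ctrl, and the 5 small subunits 0.03. Uqcrc1, a core protein, was at 195, 176, 162 and 170 TPM in Ad-Ctrl, 219, 205, 205 and 205 TPM in Ad-shmGULL and 195, 195, 189 and 199 TPM in rescue. Every knockdown mouse was above every Ad-Ctrl mouse and every rescue mouse. The log2 difference from Ad-Ctrl was 0.25 (SE 0.069, limma adjusted p = 0.0674) and that of rescue from Ad-shmGULL -0.10 (SE 0.069, adjusted p = 0.59). Without Ad-Ctrl mouse 1 the first of these was 0.30 (limma adjusted p = 0.0258). It was past the threshold in 1 of 12 fits with 1 mouse left out.

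Uqcrfs1, the Rieske protein, was at 408, 385, 336 and 337 TPM in Ad-Ctrl, 556, 363, 414 and 381 TPM in Ad-shmGULL and 398, 350, 355 and 355 TPM in rescue. Knockdown mouse 1 was far above the other 11 mice. Uqcr10, a small subunit and the most abundant, was at 388 ± 56.2 TPM in Ad-Ctrl, 393 ± 31.3 in Ad-shmGULL and 401 ± 28.7 in rescue (SD, n = 4). Uqcr11 was at 322 ± 11.8, 350 ± 14.7 and 359 ± 8.69 TPM, with all rescue mice above all Ad-Ctrl mice, as in 21.4% of all features.

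Complex IV, cytochrome c oxidase, had 18 rows, of which 13 were tested, and a sum of 3189 ± 268 TPM in Ad-Ctrl, 3565 ± 194 in Ad-shmGULL and 3555 ± 145 in rescue (SD, n = 4). Several of its nuclear subunits exist as a common and a tissue-restricted isoform, and the liver used the common ones. Cox4i1 gave 99.9% of the Cox4i TPM in each group, and Cox6a1 at least 99.9% of Cox6a. Cox4i2, known from lung, Cox6a2 and Cox8b, known from heart and skeletal muscle, were under a mean of 1 TPM and not tested, and Cox7b2 and Cox8c, known from testis, were listed at 0 in all mice. Cox4i2, Cox6a2 and Cox7a1, the heart and muscle isoform of Cox7a, were highest in the same mouse, Ad-Ctrl mouse 1, at 1.14, 0.992 and 6.09 TPM. The summed muscle markers and the summed T and NK cell markers were also highest in that mouse. Cox7a1 was 2.42% of Cox7a in Ad-Ctrl, 1.95% in Ad-shmGULL and 2.08% in rescue.

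Cox6b2, known as the testis isoform of Cox6b, had the largest log2 difference of any subunit in each comparison. It was at 12.4, 2.42, 5.29 and 5.23 TPM in Ad-Ctrl, 21.4, 14, 4.60 and 12.6 TPM in Ad-shmGULL and 19.2, 25.6, 14.1 and 12.3 TPM in rescue. Groups overlapped in each comparison, and the lowest knockdown mouse was below 3 of the Ad-Ctrl mice. The log2 difference was 0.96 for Ad-shmGULL against Ad-Ctrl (SE 0.438, limma adjusted p = 0.24), 0.52 for rescue against Ad-shmGULL (SE 0.438, adjusted p = 0.66) and 1.48 for rescue against Ad-Ctrl (SE 0.438, adjusted p = 0.0803, 1.31 relative to the all-gene median). Ad-shmGULL against Ad-Ctrl was 1.30 without Ad-Ctrl mouse 1 and 0.68 without knockdown mouse 1. With 1 mouse left out, rescue against Ad-shmGULL ranged from 0.13 without knockdown mouse 3 to 0.79 without knockdown mouse 1, and was 0.33 without rescue mouse 2. Rescue against Ad-Ctrl passed the threshold without Ad-Ctrl mouse 1 (1.82, limma adjusted p = 0.0311) and without knockdown mouse 3 (1.48, adjusted p = 0.0468). These were 2 of the 12 fits with 1 mouse left out. Of 3 testis markers, 2 were listed at 0 in every mouse, and their sum was 0 in all Ad-Ctrl and knockdown mice and at most 0.471 TPM in rescue. Cox6b2 made up 0.899%, 1.64% and 2.21% of the Cox6b TPM in the 3 groups, and Cox6b1 the rest.

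Cox6a1 was the most abundant complex IV subunit, at 912, 700, 578 and 693 TPM in Ad-Ctrl, 1271, 684, 837 and 781 TPM in Ad-shmGULL and 782, 758, 700 and 706 TPM in rescue. Cox6b1 was at 793, 624, 614 and 631 TPM in Ad-Ctrl, 815, 785, 744 and 759 TPM in Ad-shmGULL and 788, 815, 732 and 789 TPM in rescue. Cox4i1, which binds ATP as a regulatory subunit, was at 558, 487, 445 and 491 TPM, then 701, 499.9, 529 and 523 TPM, then 538, 533, 521 and 557 TPM in the same order. In these 3 genes mouse 1 was the highest of both Ad-Ctrl and Ad-shmGULL. Not every common isoform followed: Cox8a was at 400 TPM in knockdown mouse 1 and at 507 to 567 TPM in the other 3, and Cox7b at 85.8 TPM against 151 to 183 TPM.

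Cox6c was at 56.1, 52.8, 62.9 and 51.7 TPM in Ad-Ctrl, 35.7, 56.5, 56.3 and 50.7 TPM in Ad-shmGULL and 67.1, 57.7, 60.0 and 59.3 TPM in rescue. All rescue mice were above all knockdown mice, with a log2 difference of 0.31 (SE 0.131, limma adjusted p = 0.43). Without knockdown mouse 1, the lowest of all 12, the Cox6c difference was 0.16. Cox5b, which binds zinc, was at 115 to 130 TPM in Ad-Ctrl, 122 to 170 TPM in Ad-shmGULL and 138 to 164 TPM in rescue. Cox7a2l, a factor that joins complexes III and IV into supercomplexes, was at 106 ± 10.2, 94.3 ± 8.21 and 105 ± 3.93 TPM (SD, n = 4). Its group means differed by about the SD within the Ad-Ctrl mice.

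Complex V, the ATP synthase, had 17 tested rows and a sum of 3340 ± 243, 3756 ± 137 and 3695 ± 132 TPM (SD, n = 4). All 17 were above 0 in Ad-shmGULL against Ad-Ctrl, between 0.01 and 0.30, on the deposited scale, against 10 of 17 after median-of-ratios scaling. On the deposited scale 10 were above the median of all features. Atp5b, the catalytic subunit of the head, was at 709, 669, 667 and 650 TPM in Ad-Ctrl, 824, 855, 743 and 819 TPM in Ad-shmGULL and 834, 815, 765 and 782 TPM in rescue. All knockdown and all rescue mice were above all Ad-Ctrl mice. The log2 difference from Ad-Ctrl was 0.27 in Ad-shmGULL (SE 0.074, limma adjusted p = 0.0704) and 0.25 in rescue (SE 0.074, adjusted p = 0.0845, 0.07 relative to the all-gene median). The knockdown difference passed in 1 of 12 fits with 1 mouse left out. For Atp5b this was the fit without knockdown mouse 3 (0.31, limma adjusted p = 0.0378). Atp5a1, its partner in the head and the most abundant subunit of all, was at 922, 838, 806 and 810 TPM in Ad-Ctrl, 953, 906, 945 and 912 TPM in Ad-shmGULL and 948, 919, 907 and 923 TPM in rescue.

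Atp5k, a small subunit of the membrane part, was at 113, 99.9, 106 and 96.8 TPM in Ad-Ctrl, 94.4, 134, 124 and 127 TPM in Ad-shmGULL and 139, 156, 124 and 136 TPM in rescue. All rescue mice were above all Ad-Ctrl mice, by 0.41 on the log2 scale (SE 0.11, limma adjusted p = 0.0656, 0.23 relative to the all-gene median). With 1 mouse left out, this passed the threshold in 3 of 12 fits. These were without Ad-Ctrl mouse 1 (0.45, limma adjusted p = 0.0471) and without knockdown mouse 1 or 2 (adjusted p = 0.0304 and 0.048). Leaving out a knockdown mouse changes only the estimate of the spread here. Atp5h, of the peripheral stalk, was at 305, 211, 178 and 200 TPM in Ad-Ctrl, 340, 252, 263 and 231 TPM in Ad-shmGULL and 227, 227, 203 and 219 TPM in rescue. It had the lowest value of rescue against Ad-shmGULL, -0.29 (SE 0.154, limma adjusted p = 0.51), without overlap between those groups, and -0.18 without knockdown mouse 1. Rescue and Ad-Ctrl did not differ beyond their spread in Atp5h.

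The membrane ring of complex V is built from 1 mature protein encoded by 3 genes. Atp5g3 made up 77.0% of their TPM in Ad-Ctrl, 77.4% in Ad-shmGULL and 77.4% in rescue. Atp5g1 made up 12.5%, 12.3% and 10.6%, and Atp5g2 10.5%, 10.4% and 12.01%. Atp5g2 was at 28.7, 29.8, 35.7 and 38.2 TPM in Ad-Ctrl, 20.8, 45.0, 36.9 and 37.6 TPM in Ad-shmGULL and 41.1, 51.3, 42.3 and 42.4 TPM in rescue. Knockdown mouse 1 was the lowest of all 12 mice and rescue mouse 2 the highest. Atp5g3 gave most of the TPM in all groups, while the mean share of Atp5g1 was above that of Atp5g2 in Ad-Ctrl and Ad-shmGULL and below it in rescue.

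**Figure D4:**
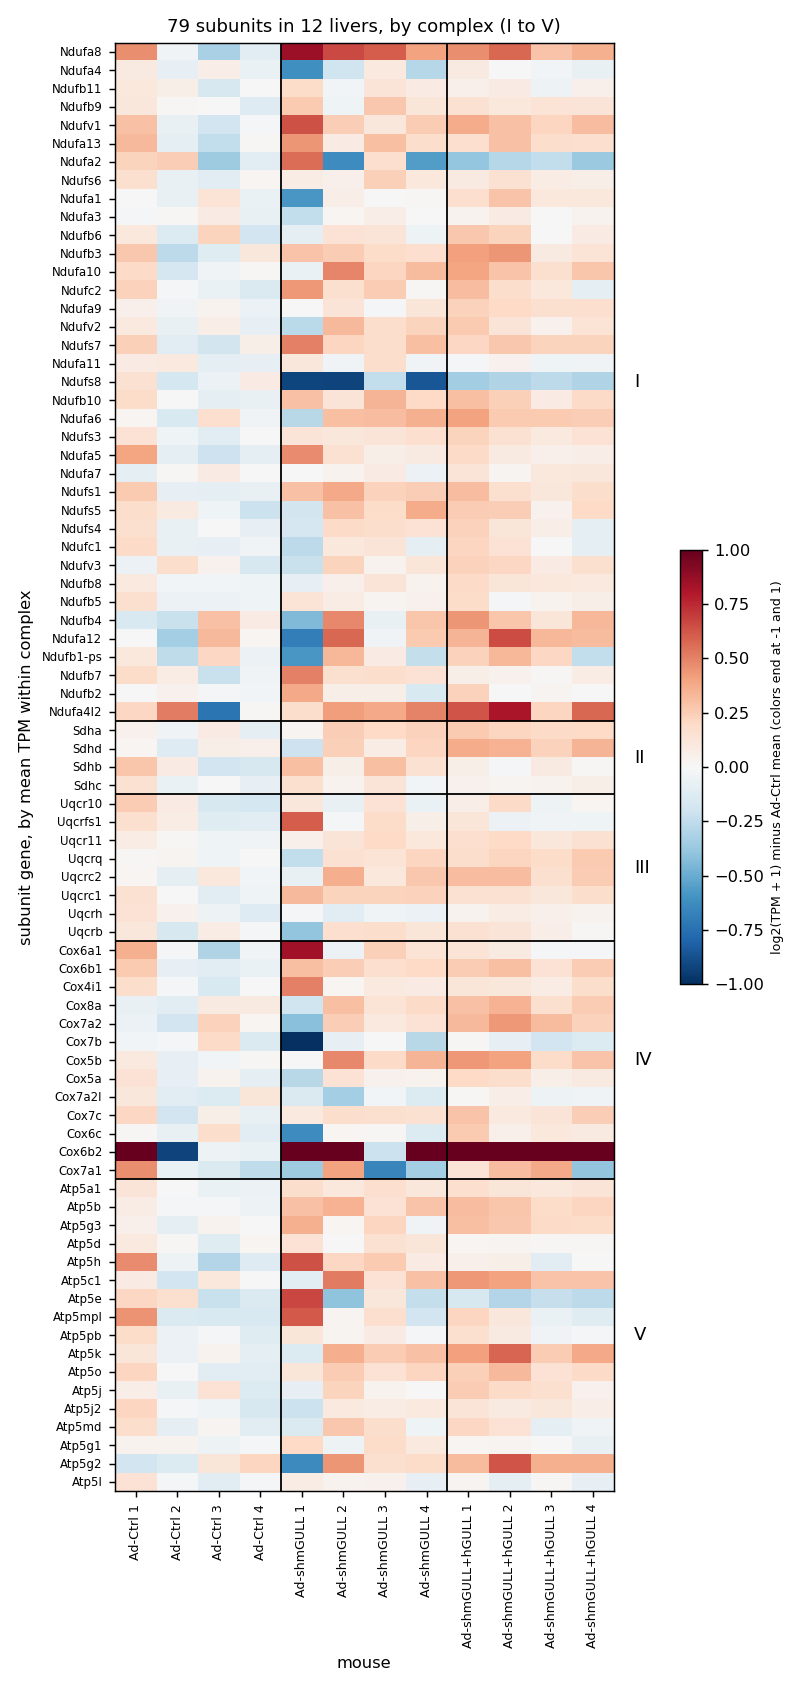
Log2(TPM + 1) of 79 subunits in each of 12 mice minus the Ad-Ctrl mean of that subunit, ordered by complex and by mean TPM within it, on a color scale that ends at -1 and 1. Ndufs8 is blue in every knockdown and rescue mouse, Ad-Ctrl mouse 1 is mostly red, and knockdown mouse 1 alternates between strong red and strong blue.

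The median coefficient of variation of the subunits between the mice of a group was 9.38% in Ad-Ctrl, 12.5% in Ad-shmGULL and 4.81% in rescue, against 15.3%, 18.9% and 10.2% for all tested features. Cox6b2 was the most variable in every group. The steadiest subunit was Uqcrq in Ad-Ctrl, Ndufs3 in Ad-shmGULL and Atp5d in rescue, with coefficients of 1.97%, 1.6% and 0.67%. Uqcrq is a small complex III subunit and Atp5d belongs to the central stalk of complex V.

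In each group the subunit deviations of some mice went with base composition. The subunit mRNAs had a median GC content of 52.4% and a median length of 760 nt, against 50.2% and 2679 nt for tested protein-coding genes. In knockdown mouse 1 the deviation from the group mean correlated with GC content across the 80 subunits (Spearman's rho 0.387, and 0.425 across 12104 protein-coding genes), and in mouse 2 it ran the other way (-0.403 and -0.391). These are correlations across genes of 1 library, and genes are not independent replicates. The 40 subunits richer in GC deviated by a median of 0.06 in mouse 1 and the 40 poorer ones by -0.18. Ndufa2, Atp5e and Cox6a1 were the furthest above the group mean in mouse 1 after Cox6b2, and Cox7b, Ndufa12 and Atp5g2 the furthest below. Across the subunits the Ad-Ctrl mice also differed, from -0.477 in mouse 3 to 0.368 in mouse 2. The rescue mice ranged from -0.418 in mouse 1 to 0.357 in mouse 4 (-0.295 and 0.0519 across protein-coding genes). Deviations from a group mean sum to 0 for each gene, so opposite signs within a group are partly built in.

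The fold changes of 2 comparisons also went with GC content. Across the 80 subunits, GC content and log2 fold change correlated with rho 0.349 in Ad-shmGULL against Ad-Ctrl, -0.263 in rescue against Ad-shmGULL and 0.0194 in rescue against Ad-Ctrl. Without knockdown mouse 1 the first of these was 0.125 and the second -0.0887. In that fit the only call in Ad-shmGULL against Ad-Ctrl was Ndufs8, and in rescue against Ad-Ctrl Cox5b, Atp5k, Sdhd, Uqcrq and Ndufa6 were called higher, with 5.13% of all features. With the trend on GC content removed, Ndufs8 remained the single call. The part of base composition in the other subunits was not tested.

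**Figure D5:**
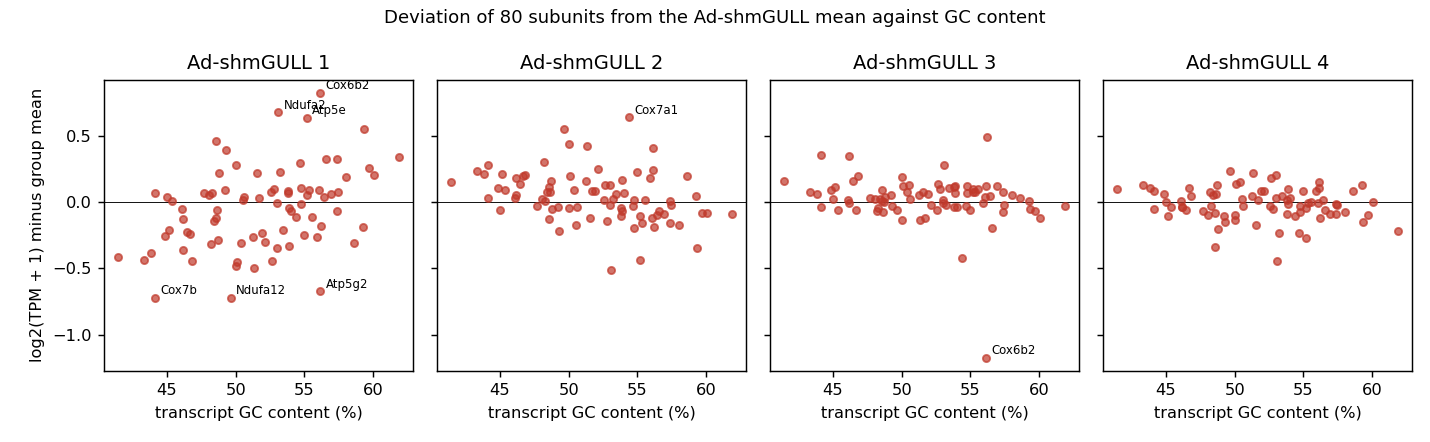
Deviation of log2(TPM + 1) from the Ad-shmGULL group mean against the GC content of the transcript, for 80 subunits in each of the 4 knockdown mice, on shared linear axes with labels where the deviation is past 0.6. The cloud rises with GC content in mouse 1 (rho 0.387) and falls in mouse 2 (-0.403), and is widest in mouse 1.

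Genes that build, feed or regulate the complexes were counted from lists compiled by hand. Of 50 tested assembly factors, 1 was called higher and 1 lower in Ad-shmGULL against Ad-Ctrl, beside 2.44% and 0.794% of all features. None was called in the other comparisons. There, unadjusted p was under 0.05 for 5 higher and 0 lower in rescue against Ad-shmGULL and for 7 higher and 0 lower in rescue against Ad-Ctrl. These higher counts are 10% and 14% of the list, near the 9.32% and under the 24.2% of all features. Coa3, which acts early in the assembly of complex IV, was at 96.4, 70.02, 67.1 and 78.8 TPM in Ad-Ctrl, 51.5, 36.0, 64.8 and 39.4 TPM in Ad-shmGULL and 64.8, 62.1, 71.6 and 62.1 TPM in rescue. It fell in the knockdown by 0.72 on the log2 scale (SE 0.165, limma adjusted p = 0.0393), with mouse 3 the highest of the knockdown mice, as for Ndufs8. Timmdc1, an assembly factor of complex I, was at 39.5 ± 2.89 TPM in Ad-Ctrl, 49.8 ± 3.93 in Ad-shmGULL and 44.6 ± 2.73 in rescue (SD, n = 4) and rose by 0.33 on the log2 scale in the knockdown (SE 0.081, adjusted p = 0.0476). With each of 12 mice left out in turn, Coa3 and Timmdc1 stayed past the threshold in 1 fit each, with limma adjusted p up to 0.0971 and 0.118. The median of the list was 0.07, 0.06 and 0.13 in the 3 comparisons.

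Of 17 electron carriers and feeders of the chain, 1 was called higher in Ad-shmGULL against Ad-Ctrl, beside 2.44% of all features. This was Coq8a, a protein needed for ubiquinone synthesis, at 81.4, 89.5, 80.9 and 73.9 TPM in Ad-Ctrl, 120, 115, 111 and 122 TPM in Ad-shmGULL and 99.6, 81.2, 83.8 and 105 TPM in rescue. The 4 knockdown mice were above all others, and the log2 difference from Ad-Ctrl was 0.52 (SE 0.093, limma adjusted p = 0.0147). It was called with any of the 12 mice left out (limma adjusted p up to 0.0468). Rescue against Ad-shmGULL gave -0.34 (SE 0.093, adjusted p = 0.32). The list had medians of 0.14, -0.0041 and 0.13, and 0 other calls by limma, with unadjusted p under 0.05 for 1 higher and 1 lower in rescue against Ad-shmGULL and 4 higher in rescue against Ad-Ctrl (5.88%, 5.88% and 23.5% of the list, against 9.32%, 1.4% and 24.2% of all features).

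Of 15 regulators of mitochondrial genes, 4, 2 and 6 were higher and 0 lower at an unadjusted p under 0.05 in the 3 comparisons. These higher counts are 26.7%, 13.3% and 40% of the list, against 15.4%, 9.32% and 24.2% of all features, a difference that was not tested. By adjusted p there was 1 call, in rescue against Ad-Ctrl, where 2.12% of all features were called higher. This was Nfe2l2, the master regulator of antioxidant genes. It was at 51.0, 43.7, 55.3 and 43.1 TPM in Ad-Ctrl, 53.6, 93.1, 64.1 and 76.1 TPM in Ad-shmGULL and 90.8, 80.5, 74.1 and 69.7 TPM in rescue, and rose in rescue against Ad-Ctrl by 0.70 on the log2 scale (SE 0.152, limma adjusted p = 0.0432). With 1 mouse left out it was called in 4 of 12 fits, with limma adjusted p up to 0.153. The coactivators Ppargc1a and Ppargc1b were at 10.8 ± 2.34 and 17.9 ± 4.38 TPM in Ad-Ctrl, 10.2 ± 1.24 and 22.5 ± 4.49 in Ad-shmGULL and 10.05 ± 0.788 and 18.3 ± 2.92 in rescue (SD, n = 4). The transcription factor Nrf1 was at 5.36 ± 0.0997, 5.16 ± 0.208 and 6.51 ± 0.468 TPM, with all rescue mice above all others, and Gabpa at 34.9 ± 4.25, 38.8 ± 4.60 and 43.7 ± 2.16 TPM. Their limma adjusted p for rescue against Ad-Ctrl was 0.13 and 0.0959. Esrra was at 29.6 ± 2.69, 33.1 ± 8.03 and 34.0 ± 0.578 TPM, and Tfam, which packages mitochondrial DNA, at 30.5 ± 4.39, 32.5 ± 4.08 and 36.9 ± 4.37 TPM.

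Ribosomal protein genes, which like the subunit genes are short and abundant, gave no calls by limma in any comparison. The 77 tested mitochondrial ribosomal proteins had medians of 0.05, 0.11 and 0.14 and unadjusted p under 0.05 for 0, 12 and 23 higher and 2, 0 and 0 lower members in Ad-shmGULL against Ad-Ctrl, rescue against Ad-shmGULL and rescue against Ad-Ctrl. The 82 tested cytosolic ribosomal proteins had medians of -0.06, 0.14 and 0.09, with 1, 21 and 10 higher and 2, 0 and 0 lower members in the same order. The higher shares were 0%, 15.6% and 29.9% of the mitochondrial and 1.22%, 25.6% and 12.2% of the cytosolic set, against 15.4%, 9.32% and 24.2% of all features. The lower shares in Ad-shmGULL against Ad-Ctrl were 2.6% and 2.44%, against 4.8%. In Ad-shmGULL against Ad-Ctrl the median of the cytosolic set was -0.14 relative to that of all features, and that of the oxidative phosphorylation subunits was 0.02. The difference between these sets was not tested.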

How the data were processed

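Liver RNA of 12 mice in 3 groups was measured by strand-specific RNA-Seq. According to the submitters' processing notes and the study's methods, the authors trimmed reads with fastp 0.23.2, checked them with FastQC 0.11.8, aligned them with HISAT2 2.2.1.0 to GRCm38.p6, counted them with featureCounts (Subread 2.0) and deposited TPM values, which sum to 1000000 in each mouse over 55385 features. The depth is therefore unknown, and no interval or detection limit is given.

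From these values, log2(TPM + 1) was fitted with limma 3.58.1 in R 4.3.3 for the 16378 features with a mean of at least 1 TPM, in 1 model of the 3 groups with a mean-variance trend and no covariate. P values were adjusted by the Benjamini-Hochberg method over all 16378 features. Exact permutation tests of 4 against 4 were two-sided. Nothing in the labels names litters or batches, and p-values measure the spread between these mice. The members, the lists and the tests were chosen with earlier results of these data known. Named subunits were the 3 most abundant of each complex, in each comparison those called or else the 4 with the smallest p, the largest rise and fall, complex II and the isoform pairs, and genes named outside this rule were core subunits, members of a stated count or listed genes, chosen after their values were seen. GC content and length came from GENCODE vM39 transcripts for 16053 tested features (98.0%), and promoter windows and gene positions from RefSeq on GRCm38.p6, with windows for 68 of 85 symbols. The values of 1 subunit are not reported here, though it is counted in the totals. The procedure was tested on simulated data for Ad-shmGULL against Ad-Ctrl. It found 75.4% of changes of 1 on the log2 scale and 27.8% of changes of 0.5, and 8.35% of its calls were false. A further 13 features listed as pseudogenes carry matching names and were left out (8 had a mean of at least 1 TPM, at most 18.0 TPM), and how reads shared with such copies were counted was not given in the sources used here. Alternatives were a pseudocount, filters, scalings, models and leaving out each mouse, and, chosen after seeing the data, a GC correction. Figures were drawn with matplotlib 3.10.9 in Python 3.11.15.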

Additional observations from a re-analysis of the deposited data

Results flagged for a closer look

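Of 114 groups of 4 mice examined (the named subunits and the summed levels in each group), 12 held a mouse whose gap to the nearest other, as a share of the range of the group, was past Dixon's critical value. Chance alone does so for about 1 in 20 groups. A total of 5 fell on Ad-shmGULL mouse 1 and 4 on Ad-Ctrl mouse 1.

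In Ad-shmGULL mouse 1 the ratio was 0.977 for Uqcrc1 (219 TPM against 205 in each of the others), 0.857 for Cox4i1 (701 TPM against 499.9 to 529), 0.857 for Ndufa1 (93.6 TPM against 139.7 to 147), 0.927 for the sum of complex II (917 TPM against 997 to 1003) and 0.892 for the sum of complex IV (3855 TPM against 3450.02 to 3494). Its subunits lay both above and below the other knockdown mice.

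In Ad-Ctrl mouse 1 it was 0.905 for Cox6b1 (793 TPM against 614 to 631), 0.888 for the sum of complex I (4567 TPM against 3890.47 to 3966), 0.862 for that of complex V (3702 TPM against 3189 to 3260.0) and 0.899 for all subunits (15005 TPM against 12938 to 13147). All of these were upward.

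In Ad-shmGULL mouse 3 Ndufs8 gave 0.915, at 99.3 TPM against 61.5 to 64.7 TPM in the other 3. In the rescue group Uqcrfs1 gave 0.878 in mouse 1 (398 TPM against 349.6 to 355) and Atp5g2 gave 0.877 in mouse 2 (51.3 TPM against 41.1 to 42.4).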

How the results depend on the processing

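The 16 differences named for the smallest p, the largest rise or the largest fall of a comparison kept their sign in each of 24 alternatives. They were picked by size or p in these same data, which makes a stable sign likely. Other named differences were not part of this count. The median log2 fold change of the subunits moved to 0.0043 with median-of-ratios scaling and -0.0046 with the GC correction in Ad-shmGULL against Ad-Ctrl. In rescue against Ad-shmGULL it was -0.0607, -0.0239, -0.0300 and -0.0459 with median-of-ratios scaling, quantile normalization, rescaling without the 20 highest genes and the GC correction, and in rescue against Ad-Ctrl -0.0663, 0.0031, 0.0383 and -0.0463. By construction these scalings take out the shift of all genes, except the rescaling without the 20 highest genes, which need not do so. Calls in Ad-shmGULL against Ad-Ctrl numbered 1 without a filter, with median-of-ratios or quantile scaling, without the 20 highest genes, rescaled to protein-coding genes, without the trend and with the GC correction, 0 with only the 2 groups compared, and 0 to 8 with a mouse left out (8 without Ad-Ctrl mouse 1, 0 without Ad-Ctrl mouse 4 or Ad-shmGULL mouse 2). Calls in rescue against Ad-Ctrl numbered 12 with only the 2 groups and 25 with array weights, and 0 to 6 with a mouse left out. At the study's threshold, rescue against Ad-Ctrl gave 1 subunit with a mean TPM of at least 5, with quantile normalization, without the 20 highest genes, with only the 2 groups and with the GC correction, and 1 to 2 with a mouse left out, and rescue against Ad-shmGULL gave 0 to 3 (3 without Ad-shmGULL mouse 2, 1 without mouse 3). The cause of these changes was not tested. Same-numbered mice did not deviate together (correlations from -0.244 to 0.154), and with a replicate block the calls among subunits stayed at 2, 0 and 0 while those among all features went from 529 to 418 and from 352 to 71. The depth is unknown, so no limit from it can be given.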
